A study of Mus musculus with 24 samples.

Results

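The subject is a set of 9 genes of the ETS family of transcription factors, namely Erg, Fli1, Ets1, Ets2, Elf1, Elf4, Etv6, Gabpa and Elk3. They are 9 of 21911 protein-coding genes in the GENCODE vM21 annotation of mm10, and 9 of the 26 ETS genes considered. For each of them, every ATAC-seq peak that touched the gene body or the 20 kb on either side of it was collected from 24 deposited peak lists. The genes were chosen by name and the peaks by position, so the rule itself uses no measured value. ATAC-seq marks open chromatin by the insertion of sequencing adapters, and the lists came from 12 mouse hematopoietic cell populations with 2 libraries each. The 10 primary populations were taken from adult C57BL6 mice, for which the labels give no genetic change. Bone marrow supplied LSK cells (with the stem cells among them), the common myeloid progenitors or CMP, granulocyte macrophage progenitors (GMP), megakaryocyte erythroid progenitors (MEP), erythroid colony-forming cells (CFUE), erythroblasts (ERY), megakaryocyte colony-forming cells (CFUMK) and immature megakaryocytes (iMK), while monocytes (MON) and neutrophils (NEU) were sorted from peripheral blood. The other 2 populations were cell lines that lack the endogenous factor GATA1: G1E, which is committed to the erythroid lineage, and G1E-ER4+E2, a clone of G1E in which a GATA1 and estrogen receptor hybrid protein works when estradiol is given. The rescued line is a single clone, so the restored factor, the estradiol and the clone cannot be told apart in it.

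ETS factors share a DNA-binding domain that recognizes a GGAA core, and they differ in their partners and in the cells that express them. ERG and FLI1 are close relatives that maintain blood stem cells and serve megakaryocyte formation, and in progenitors they bind together with TAL1, LYL1, LMO2, GATA2 and RUNX1. FLI1 favors the megakaryocytic over the erythroid fate. ETS1 is known best from lymphocytes, ETV6 is a repressor that stem cells in adult marrow need, ELK3 works with serum response factor, and GABPA is the DNA-binding subunit of a complex that drives genes of mitochondria and of general cell growth. Open chromatin in a gene's window is not its expression, and no RNA values are used here.

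The lists held 52720 to 230877 peaks, each at most 150 bp wide, and the 9 windows together (1.33 Mb) held 95 peaks in CFUE replicate 2 to 293 in CFUMK replicate 2. A list's depth in reads is not given in it. A relative depth, read from the steps between the lowest scores, was 40.2% or more of the highest value in every primary library but 22.3% to 27% in the cell lines. The mice behind each library are not named, so the p-values below measure only the spread between these libraries, and fewer cells of a type and less open chromatin per cell cannot be told apart in such pooled cells. Promoters of 8 erythroid marker genes were called for all 8 in every CFUE, ERY and G1E-ER4+E2 library and for 7 in both G1E libraries, where that of Alas2, an enzyme of heme synthesis, was not called. Of 7 megakaryocyte markers 5 and 6 were called in CFUMK but 3 and 4 in iMK, where the promoters of Gp1ba, Gp6 and Treml1 had no peak in either library, against 7 and 7 in CMP. Of 8 neutrophil markers 4 and 5 were called in NEU, without Elane, Ltf or Camp in either library, against 8 and 8 in GMP. All 8 B cell markers were called in both NEU libraries and 1 to 6 of them in the others. Markers of other lineages were also called in the megakaryocytic libraries: of 8 monocyte markers 7 and 7 in CFUMK and 8 and 8 in iMK, and of the 8 neutrophil markers 8 and 7 in CFUMK and 7 and 7 in iMK, where the CFUE and ERY libraries had 1 or 2 monocyte and 0 or 1 neutrophil markers. The megakaryocytic and NEU values below stand beside these counts, whose part in them was not tested.

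The genes differ in size, and so do the windows. Erg (ENSMUSG00000040732.20, chr16:95359169-95586593, minus strand) spans 227 kb with 6 annotated transcript starts. Fli1 (ENSMUSG00000016087.13, chr9:32422204-32542861, minus strand) spans 121 kb, and Ets1 (ENSMUSG00000032035.15, chr9:32636221-32757820, plus strand) is its neighbor on chromosome 9, as Ets2 (chr16:95702075-95721051, plus strand) is the neighbor of Erg. The others are Elf1 (chr14:79481194-79582494), Elf4 (chrX:48411046-48463132), Etv6 (chr6:134035700-134270158), Gabpa (chr16:84834925-84863779) and Elk3 (chr10:93247414-93311135). The windows do not overlap each other, but those of Elf1 (Wbp4 and Sugt1), Elf4 (Bcorl1 and Aifm1), Gabpa (Jam2 and Atp5j) and Elk3 (Cdk17) also contain other protein-coding genes, whose peaks were counted with them.

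Peaks found in both libraries of a type, with an overlap of 1 bp or more, were merged over the 12 types into elements. The windows held 327 of the 207525 elements of the genome, with 60 at Erg, 37 at Fli1, 39 at Ets1, 7 at Ets2, 35 at Elf1, 21 at Elf4, 83 at Etv6, 8 at Gabpa and 37 at Elk3. Of the 327, 257 were intronic, 33 and 24 lay in the downstream and upstream flanks, 2 in coding exons, 8 in UTR exons and 3 in noncoding exons. Their median width was 251 bp, and 51 lay within 1 kb of a transcript start of any gene. Each element has a score percentile in a library, the rank of its best peak by the authors' score among all peaks of that list, from 0 where none was called up to 100.

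Stretches of genes with fewer erythroid peaks (Erg, Fli1, Ets1, Etv6 and Elk3) are shown first, as 200 bp about the element's center or, at promoters, as the part outside exons. Those of Ets2, Elf1, Elf4 and Gabpa are not printed. Of these, the leading distal element of Elf1 was called in all 12 types and that of Gabpa in 11, including CFUE and ERY. The leading ones of Elf4 and Ets2 were called in neither CFUE nor ERY. They are given in mm10 (GRCm38.p6, RefSeq), 5′ to 3′ along the strand of the gene, and distances are from the principal start of the gene, positive downstream. Capitals mark matches on either strand to one of these motifs, which may overlap each other: for ETS factors CCGGAAG with variant CAGGAAG, for GATA factors AGATAA with variant TGATAA, for RUNX factors TGTGGTT with variant TGCGGTT, and for E-boxes CAGCTG with variant CAGATG. A match describes the letters only and is not a binding site, and a stretch with no capitals holds none of these 8 words. The first group is from Erg: the internal promoter called in LSK and CMP, then the 3 distal elements of highest score percentile. The next pair, at +98.5 and +107.7 kb of Erg, was called in G1E and not in G1E-ER4+E2, and was chosen after its values were seen. The promoter and the 3 distal elements of highest score percentile follow for Fli1, then the leading distal element each of Ets1, Etv6 and Elk3.
Erg +127.2 kb, promoter, chr16:95459349-95459470 (minus strand): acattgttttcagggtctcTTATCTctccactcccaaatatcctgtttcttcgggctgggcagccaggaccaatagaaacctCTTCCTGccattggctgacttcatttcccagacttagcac
Erg +236.6 kb, downstream flank, chr16:95349846-95350045 (minus strand): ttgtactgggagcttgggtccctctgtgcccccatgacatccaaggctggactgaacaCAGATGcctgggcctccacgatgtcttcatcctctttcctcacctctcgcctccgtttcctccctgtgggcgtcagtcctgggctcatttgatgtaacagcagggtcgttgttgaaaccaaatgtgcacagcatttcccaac
Erg +121.8 kb, intron, chr16:95464674-95464873 (minus strand): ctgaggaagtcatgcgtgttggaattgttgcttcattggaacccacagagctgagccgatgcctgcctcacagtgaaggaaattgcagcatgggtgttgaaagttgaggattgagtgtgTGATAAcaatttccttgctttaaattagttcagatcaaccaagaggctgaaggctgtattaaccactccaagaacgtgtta
Erg +147.4 kb, intron, chr16:95439053-95439252 (minus strand): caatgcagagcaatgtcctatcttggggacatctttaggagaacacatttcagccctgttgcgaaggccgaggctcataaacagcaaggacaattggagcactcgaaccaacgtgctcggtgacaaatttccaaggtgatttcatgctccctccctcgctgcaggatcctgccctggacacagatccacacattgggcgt
Erg +98.5 kb, intron, chr16:95488019-95488218 (minus strand): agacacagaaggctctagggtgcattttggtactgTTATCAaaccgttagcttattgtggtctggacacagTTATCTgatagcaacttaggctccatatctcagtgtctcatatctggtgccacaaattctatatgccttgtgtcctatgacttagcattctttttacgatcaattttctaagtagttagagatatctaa
Erg +107.7 kb, intron, chr16:95478754-95478953 (minus strand): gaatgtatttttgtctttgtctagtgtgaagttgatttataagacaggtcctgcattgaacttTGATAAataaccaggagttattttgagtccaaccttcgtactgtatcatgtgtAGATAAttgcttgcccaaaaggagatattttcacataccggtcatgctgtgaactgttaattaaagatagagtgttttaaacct
Fli1 +0.105 kb, promoter, chr9:32541596-32541753 (minus strand): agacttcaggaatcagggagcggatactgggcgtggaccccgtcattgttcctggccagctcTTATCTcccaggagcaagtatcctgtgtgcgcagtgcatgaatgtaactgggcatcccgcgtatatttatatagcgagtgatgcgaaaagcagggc
Fli1 +2.09 kb, intron, chr9:32539402-32539601 (minus strand): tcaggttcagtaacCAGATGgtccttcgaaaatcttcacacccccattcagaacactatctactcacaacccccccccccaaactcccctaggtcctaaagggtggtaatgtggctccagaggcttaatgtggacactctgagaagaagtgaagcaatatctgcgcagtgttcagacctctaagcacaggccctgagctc
Fli1 +40.5 kb, intron, chr9:32500974-32501173 (minus strand): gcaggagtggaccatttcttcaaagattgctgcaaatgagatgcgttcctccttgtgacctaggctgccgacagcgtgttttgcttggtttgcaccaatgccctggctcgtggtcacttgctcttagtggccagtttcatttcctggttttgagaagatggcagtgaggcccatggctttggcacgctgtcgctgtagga
Fli1 +41.35 kb, intron, chr9:32500140-32500339 (minus strand): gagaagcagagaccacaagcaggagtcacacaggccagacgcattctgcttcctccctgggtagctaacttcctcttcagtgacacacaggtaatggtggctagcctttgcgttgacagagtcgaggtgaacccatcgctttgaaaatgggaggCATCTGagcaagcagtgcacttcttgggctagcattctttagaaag
Ets1 -27.8 kb, intron, chr9:32668091-32668290 (plus strand): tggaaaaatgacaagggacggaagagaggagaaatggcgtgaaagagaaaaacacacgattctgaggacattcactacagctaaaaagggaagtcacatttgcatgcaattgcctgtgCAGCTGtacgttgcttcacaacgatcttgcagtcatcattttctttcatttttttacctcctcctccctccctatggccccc
Etv6 +29.5 kb, intron, chr6:134065102-134065301 (plus strand): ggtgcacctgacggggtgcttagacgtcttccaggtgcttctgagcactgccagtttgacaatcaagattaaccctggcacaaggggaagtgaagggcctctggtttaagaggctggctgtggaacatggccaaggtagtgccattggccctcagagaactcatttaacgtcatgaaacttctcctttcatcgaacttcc
Elk3 +49.8 kb, intron, chr10:93261243-93261442 (minus strand): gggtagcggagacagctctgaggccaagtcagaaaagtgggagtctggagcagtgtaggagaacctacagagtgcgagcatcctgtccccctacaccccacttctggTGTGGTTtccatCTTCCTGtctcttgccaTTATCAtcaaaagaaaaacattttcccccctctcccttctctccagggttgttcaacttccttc

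The first question was how open the chromatin of each gene was as multilineage progenitors (LSK, CMP and GMP) gave way to the erythroid (CFUE and ERY), megakaryocytic (CFUMK and iMK) and innate (MON and NEU) types. Erg, Fli1, Ets1, Etv6 and Elk3 had fewer peaks in the erythroid types, Elf1 and Elf4 had more, and Ets2 and Gabpa passed no test there. The measure was the number of peaks in the window per 100000 called peaks of the library, compared as log2 after adding a prior of 1 peak. It was fitted with limma over all 17023 protein-coding genes with a mean of 3 or more peaks, all 9 genes among them, and p-values were adjusted over all of these genes (Benjamini-Hochberg, two-sided). The 3 contrasts with the multilineage types share those 6 libraries, and the contrast of megakaryocytic with erythroid types shares the libraries of both. The median over all genes was itself +0.30 log2 in the erythroid contrast, +0.12 in the innate contrast, -0.32 between megakaryocytic and erythroid types, +0.12 from CMP to MEP and +0.15 from MEP to CFUE, and was near 0 in the other 2. Beside each call of the 9 genes in a contrast with such a shift, the value relative to that median is given too. Calls of other genes are given without it and stand beside these medians.

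Erg was lower in the erythroid types. Its window held 46 and 23 peaks in the LSK libraries, 56 and 50 in CMP, 56 and 37 in GMP and 43 and 62 in MEP, against 23 and 12 in CFUE then 21 and 18 in ERY. There were 49 and 51 in CFUMK, 53 and 50 in iMK, 24 and 17 in MON, 25 and 26 in NEU, 29 and 28 in G1E and 10 and 14 in G1E-ER4+E2. The libraries of LSK lay far apart, as did those of CFUE, and CFUE replicate 1 had as many peaks as LSK replicate 2. Scaled to 100000 called peaks the values were 22.9 and 17 in LSK, 25.1 and 24.5 in CMP, 24.3 and 21.4 in GMP, 17.2 and 12.1 in CFUE and 19.5 and 18.4 in ERY, so the erythroid and multilineage libraries overlapped. The log2 difference was -0.42 ± 0.14 (SE), or -0.72 relative to the median gene (limma, adjusted p = 0.0146), and it was no longer called with 50 kb flanks (-0.28, adjusted p = 0.0846), without LSK replicate 1 (-0.35, adjusted p = 0.0513) or without CFUE replicate 2 (-0.30, adjusted p = 0.119). On this scale CFUMK had 24.2 and 25.9 and iMK 30.8 and 25.5, each library above every erythroid one, and the megakaryocytic minus erythroid difference was +0.66 ± 0.16 log2, or +0.97 relative to the median gene (limma, adjusted p = 0.00121). Ordered by type means, G1E (51.6 ± 4.77, SD, n = 2) stood above MEP (32.3 ± 8.99) without overlap. From MEP, iMK, NEU and CFUMK to CMP (24.8) neighbors overlapped. CMP lay above GMP (22.8), though CFUMK replicate 1 (24.2) and NEU replicate 1 (23.0) were below GMP replicate 1 (24.3). From GMP through LSK, ERY, G1E-ER4+E2 and CFUE to MON (13.8) neighbors overlapped again.

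Fli1 had the largest erythroid decrease of the 9 genes. Its window held 11 and 6 peaks in CFUE and 5 and 2 in ERY, against 32 and 19 in LSK, 27 and 32 in CMP, 30 and 25 in GMP and 29 and 34 in MEP. It held 29 and 32 in CFUMK, 29 and 28 in iMK, 29 and 25 in MON, 23 and 23 in NEU, 10 and 9 in G1E and 11 and 16 in G1E-ER4+E2. All 4 erythroid libraries fell below every other primary library. On the scale of 100000 called peaks they had 8.23 and 6.04 in CFUE and 4.64 and 2.05 in ERY, while LSK had 15.9 and 14, CMP 12.1 and 15.7 and GMP 13 and 14.5. The log2 difference from the multilineage types was -1.45 ± 0.17, or -1.74 relative to the median gene (limma, adjusted p = 1.26e-07). From the megakaryocytic side it was +1.56 ± 0.18 log2, or +1.88 relative to the median gene (limma, adjusted p = 2.47e-07), with 14.3 and 16.2 per 100000 in CFUMK and 16.8 and 14.3 in iMK. Fli1 had 17.7 and 19.1 per 100000 in MON and 21.2 and 27.3 in NEU. Its rise over the multilineage types was 0.55 ± 0.17 log2, or 0.43 relative to the median gene (limma, adjusted p = 0.0172). The rise was not called without NEU replicate 2 (0.46), without MON replicate 2 or without CMP replicate 1. With equal numbers of peaks from each list it was 0.00. In the order of type means, neighbors overlapped from NEU (24.2 ± 4.31) through G1E-ER4+E2, MEP, MON, G1E, iMK, CFUMK, LSK and CMP down to GMP (13.7 ± 1.05), and CFUE (7.13 ± 1.55) and ERY (3.34 ± 1.84) each stood apart below them.

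**Figure D1:**
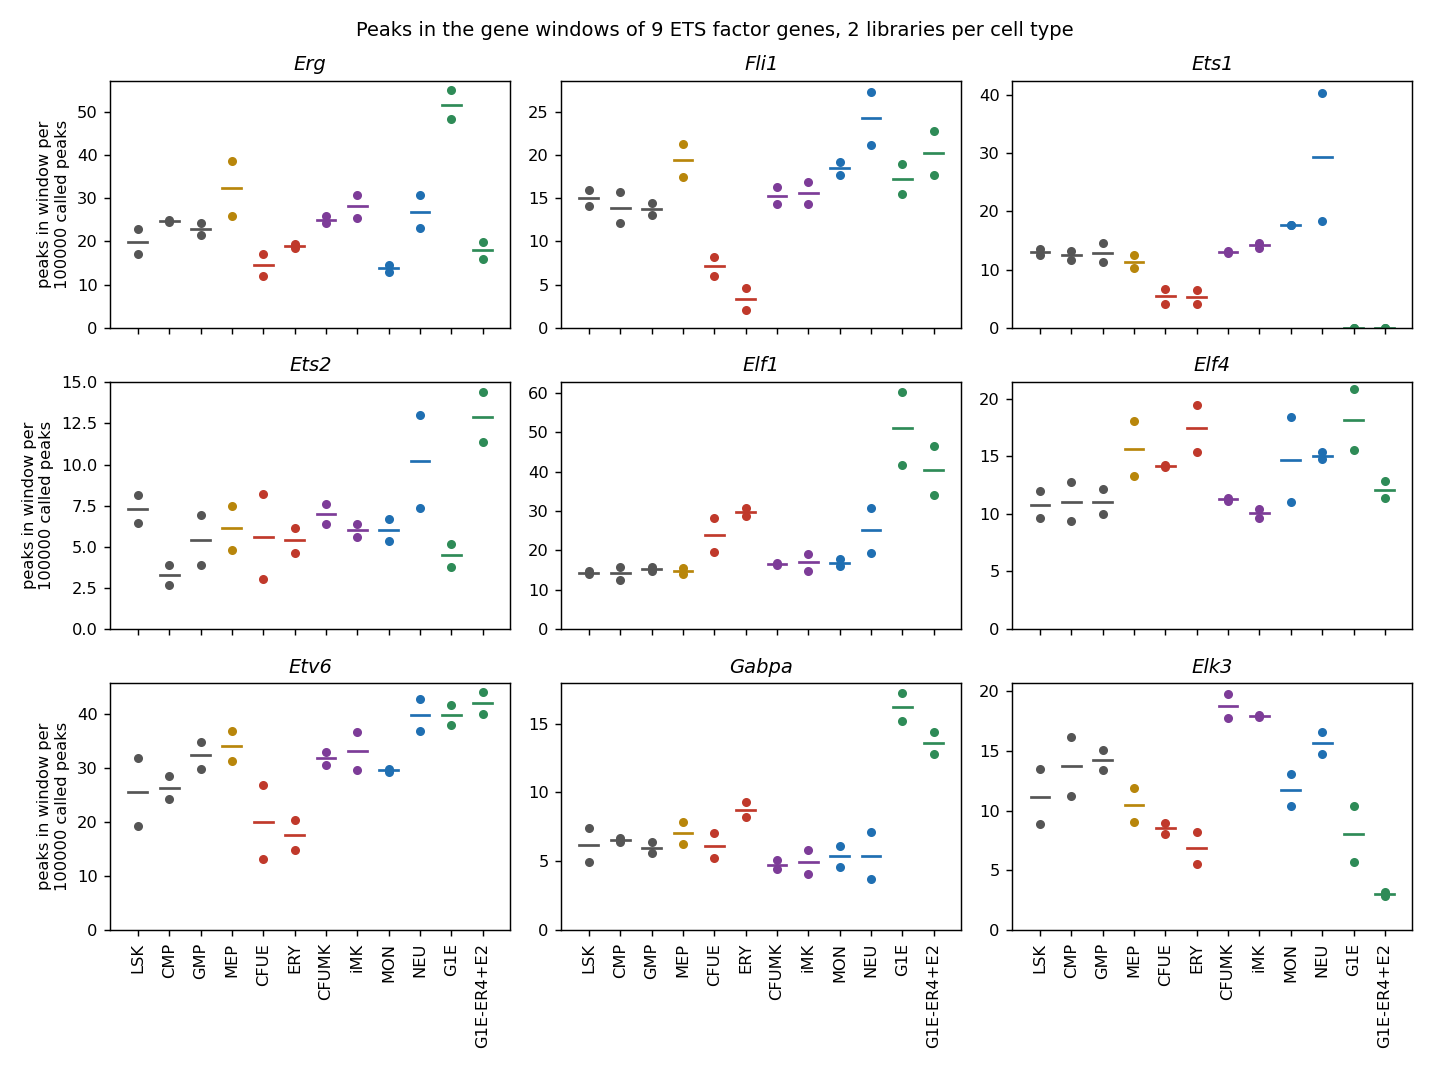
Number of peaks in each gene's window per 100000 called peaks of the library, one panel per gene, with 1 point per library and a bar at the mean of the 2 libraries of each type. At Fli1 the CFUE and ERY points lie between 2.05 and 8.23, below all other libraries, and at Ets1 the 4 cell line points are at 0.

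Ets1, a neighbor of Fli1, showed a similar erythroid decrease, and its window was empty in the cell lines. Per 100000 called peaks LSK had 13.4 and 12.6, CMP 11.6 and 13.2, GMP 11.3 and 14.5 and MEP 10.3 and 12.5. CFUE had 6.73 and 4.02, ERY 6.50 and 4.09, CFUMK 12.8 and 13.2, iMK 14.5 and 13.8, MON 17.7 and 17.6 and NEU 18.4 and 40.3. The erythroid libraries lay below all other primary ones, with a log2 difference from the multilineage types of -1.19 ± 0.19, or -1.49 relative to the median gene (limma, adjusted p = 1.78e-05), and the megakaryocytic types were +1.27 ± 0.21 log2 above them, or +1.59 relative to the median gene (limma, adjusted p = 3.39e-05). The innate types were higher than the multilineage ones by 0.76 ± 0.19 log2, or 0.63 relative to the median gene (limma, adjusted p = 0.00589), but this rested on NEU replicate 2, without which it was 0.48 (adjusted p = 0.0907). None of the 4 cell line libraries, the shallowest of the series, had a peak in the window, while Fli1 next to it had 9 to 16 peaks in each. Ordered by type means, NEU (29.4 ± 15.5), MON (17.7 ± 0.0641) and iMK (14.1 ± 0.545) each stood clear of the next type. GMP replicate 2, further down the order, still lay within the range of iMK. CFUMK, LSK, GMP, CMP and MEP overlapped from 13 to 11.4, and CFUE (5.38) and ERY (5.30) overlapped below them.

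Ets2, the relative of Ets1 beside Erg, has a short window with 2 to 15 peaks in a library. Its values per 100000 called peaks were 6.47 and 8.13 in LSK, 2.69 and 3.92 in CMP, 3.90 and 6.95 in GMP, 4.83 and 7.48 in MEP, 8.23 and 3.02 in CFUE and 4.64 and 6.14 in ERY. The values were 6.42 and 7.61 in CFUMK, 6.39 and 5.60 in iMK, 7.36 and 13 in NEU and 6.72 and 5.36 in MON. The groups overlapped, and no lineage contrast was called (erythroid +0.05 ± 0.23 log2, adjusted p = 0.876, innate +0.56, adjusted p = 0.0715, by limma). The erythroid direction turned in the gene body alone (-0.85) and with equal numbers of peaks from each list, where CFUE had 2 and 0 and ERY 0 and 0 peaks against 4 to 9 in the multilineage libraries.

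Etv6, with the longest window, had 13 to 69 peaks in a library. It held 64 and 26 in LSK, 54 and 58 in CMP, 69 and 60 in GMP, 52 and 59 in MEP, 36 and 13 in CFUE and 16 and 20 in ERY. The numbers were 62 and 65 in CFUMK, 63 and 58 in iMK, 48 and 39 in MON, 40 and 36 in NEU, 22 and 22 in G1E and 25 and 31 in G1E-ER4+E2. As a rate per 100000, CFUE had 26.9 and 13.1 and ERY 14.9 and 20.5, against 31.9 and 19.2 in LSK, 24.2 and 28.4 in CMP and 29.9 and 34.8 in GMP, and the libraries overlapped. The erythroid difference was -0.59 ± 0.16 log2, or -0.89 relative to the median gene (limma, adjusted p = 0.00335), and without CFUE replicate 2 it was -0.34 and not called (adjusted p = 0.075). CFUMK (30.6 and 33) and iMK (36.6 and 29.5) lay above all 4 erythroid libraries, by +0.81 ± 0.18 log2, or +1.13 relative to the median gene (limma, adjusted p = 0.000558).

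Elk3 had its highest numbers in megakaryocytic cells when all peaks were counted, but not with equal numbers of peaks from each list. There MON had 12 and 13 peaks, against 3 and 3 in CFUMK and 5 and 6 in iMK. The window held 36 and 39 peaks in CFUMK and 31 and 35 in iMK, 27 and 12 in LSK, 25 and 33 in CMP, 31 and 26 in GMP and 15 and 19 in MEP. CFUE had 12 and 8 and ERY 6 and 8, and there were 17 and 17 in MON, 16 and 14 in NEU, 3 and 6 in G1E and 2 and 2 in G1E-ER4+E2. Per 100000 called peaks CFUMK (18.8 ± 1.42, SD, n = 2) and iMK (17.9 ± 0.129) overlapped each other and stood above every other type, NEU, GMP, CMP, MON, LSK and MEP overlapped from 15.7 to 10.4, and CFUE, G1E and ERY overlapped from 8.51 to 6.88. The erythroid difference from the multilineage types was -0.70 ± 0.17 log2, or -1.003 relative to the median gene (limma, adjusted p = 0.00146), with CFUE replicate 1 above LSK replicate 2. The megakaryocytic types exceeded the erythroid ones by 1.20 ± 0.19 log2, or 1.515 relative to the median gene (limma, adjusted p = 1.9e-05) without overlap, but the multilineage ones by 0.50 ± 0.17 log2 only, with an adjusted p of 0.4.

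Elf1, which acts in lymphoid, endothelial and stem cells, went the other way. Per 100000 called peaks LSK had 13.9 and 14.8, CMP 12.5 and 15.7, GMP 14.7 and 15.6 and MEP 13.9 and 15.6. CFUE had 19.4 and 28.2, ERY 30.6 and 28.6, CFUMK 16.3 and 16.7, iMK 19.2 and 14.8, MON 17.7 and 16.1, NEU 19.3 and 30.8, G1E 41.7 and 60.3 and G1E-ER4+E2 46.5 and 34.1. All erythroid libraries lay above all multilineage ones, by 0.83 ± 0.15 log2, or 0.53 relative to the median gene (limma, adjusted p = 7.05e-05). In peaks rather than per 100000, CFUE (26 and 28) and ERY (33 and 28) had about as many as CMP (28 and 32) in lists that were shorter by far. The megakaryocytic types had fewer than the erythroid ones, by -0.64 ± 0.17 log2, or -0.32 relative to the median gene (limma, adjusted p = 0.00258). The innate rise was 0.47 ± 0.15 log2, or 0.34 relative to the median gene (limma, adjusted p = 0.0248). It was not called without NEU replicate 2 (0.30), either MON library or replicate 1 of LSK, CMP or GMP, each left out alone.

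Elf4, a relative of Elf1 with known roles in stem cells and T cells, moved less. Per 100000 called peaks CFUE had 14.2 and 14.1 and ERY 19.5 and 15.3, above the 11.9 and 9.61 of LSK, 9.40 and 12.7 of CMP and 9.96 and 12.2 of GMP. MEP had 13.3 and 18.1, CFUMK 11.4 and 11.2, iMK 10.5 and 9.68, MON 11 and 18.4, NEU 14.7 and 15.4, G1E 20.9 and 15.5 and G1E-ER4+E2 12.8 and 11.4. The erythroid difference of +0.50 ± 0.16 log2, or +0.20 relative to the median gene (limma, adjusted p = 0.0101), was 0.13 in the gene body alone (adjusted p = 0.557) and reversed to -0.65 when equal numbers of peaks were taken from each list. Gabpa, which has a window of 8 elements around a start that also serves Atp5j, had 4 to 15 peaks in a library, from 3.68 and 7.11 per 100000 in NEU and 4.44 and 5.07 in CFUMK to 9.29 and 8.18 in ERY and 15.2 and 17.2 in G1E. Its erythroid difference from the multilineage types was +0.21 ± 0.18 log2 (limma, adjusted p = 0.33), and the megakaryocytic types were lower than the erythroid ones by -0.54 ± 0.20 log2, or -0.22 relative to the median gene (limma, adjusted p = 0.0279), with overlapping libraries and a sign that turned in a 50 kb flank (+0.21).

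**Figure D2:**
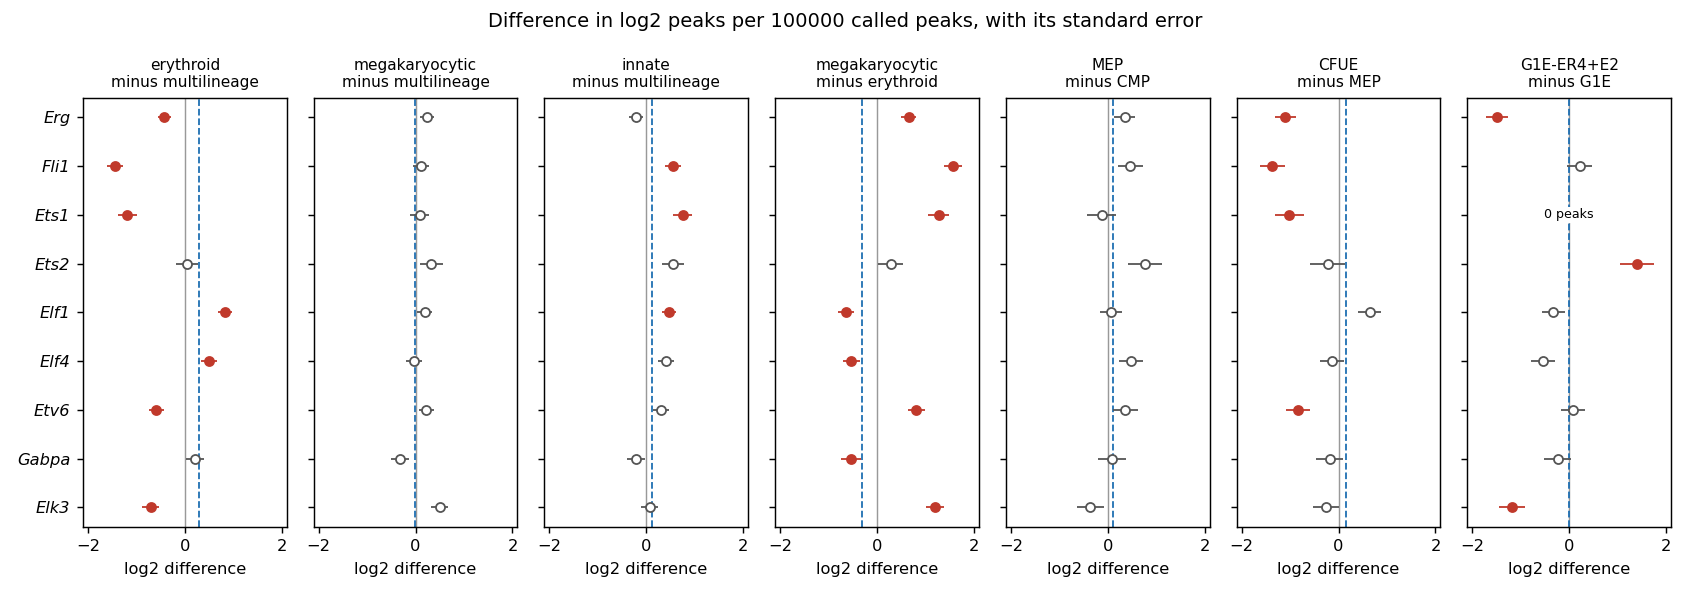
Log2 difference in peaks per 100000 (prior of 1 peak) for each gene in the 7 contrasts, with bars of ± 1 SE, filled red where the adjusted p was below 0.05, and a dashed line at the median of all genes tested. In the panel of megakaryocytic minus erythroid types Fli1, Ets1, Elk3, Etv6 and Erg lie to the right of both 0 and the dashed line, at +0.66 to +1.56.

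Over the genes, 5 of 9 were called lower and 2 higher in the erythroid than in the multilineage types, where 17.6% of all genes tested were called lower and 38.9% higher. The median of the 9 log2 differences was -0.42, against +0.30 over all genes. Between megakaryocytic and erythroid types 5 were higher and 3 lower, with 16% and 36.4% of all genes so called, and a median of +0.66 against -0.32. In the innate contrast 3 were higher and 0 lower, with 13.9% and 12.8% of all genes, and 5 of 9 had an unadjusted p below 0.05. The labels name no batch. By their library numbers, all libraries of the erythroid, megakaryocytic, MEP, CMP and GMP cells lie from 842 to 856. LSK replicate 2 is numbered next to MON and NEU. Among libraries 842 to 856, with CMP and GMP alone as the multilineage types, limma again called 7 genes in the erythroid contrast. Fli1 was at -1.41 (limma, adjusted p = 3.19e-06) and Erg at -0.51 (limma, adjusted p = 0.00555), against a median of +0.33 over all genes. The share of all genes called in that setting is not given, so the 7 is not read as particular to these genes. Against LSK replicate 2 alone, the log2 differences of MON and NEU were 0.77 for Ets1, 0.56 for Fli1 and 0.44 for Elf1. With 1 library on that side no call is drawn from them. Between megakaryocytic and multilineage types limma called 0 of 9 genes, with 1 at an unadjusted p below 0.05, and 0.0176% of all genes were called higher and 0.2% lower. The adjusted p of the 9 ran from 0.4 to 0.997 there, and the median of their log2 differences was +0.19 against -0.01 over all genes.

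The erythroid difference was then followed along the erythroid path. From CMP to MEP limma called 0 of 9 genes, with 1 at an unadjusted p below 0.05 and 0.711% of all genes called higher and 0.975% lower. With equal numbers of peaks from each list, however, Fli1 went from 20 and 20 peaks in CMP to 9 and 10 in MEP. Ets1 went from 10 and 12 to 1 and 1 and Etv6 from 33 and 39 to 22 and 26, and Elf4 and Elk3 were lower too. Erg rose from 12 and 10 to 17 and 24, and Ets2, Elf1 and Gabpa were not lower. The step at which peaks were lost thus depended on how they were counted. From MEP to CFUE 4 genes were called lower and 0 higher, against 5.24% and 2.06% of all genes. Erg went from 25.9 and 38.7 per 100000 in MEP to 17.2 and 12.1 in CFUE, a log2 difference of -1.10 ± 0.22, or -1.25 relative to the median gene (limma, adjusted p = 0.00204). Fli1 went from 17.5 and 21.2 to 8.23 and 6.04, by -1.36 ± 0.26, or -1.51 relative to the median gene (limma, adjusted p = 0.00116). In both the MEP libraries lay above both CFUE libraries. Ets1 (-1.02 ± 0.30 log2, or -1.17 relative to the median gene, adjusted p = 0.0369) and Etv6 (-0.83 ± 0.25 log2, or -0.98 relative to it, adjusted p = 0.0408) passed narrowly by limma. The direction of Ets1 turned with equal numbers of peaks from each list (+0.29), and Etv6 was -0.33 without CFUE replicate 2. Of the runs that left out 1 library, 6 lost the call of Ets1 and 10 that of Etv6. Erg was -0.85 and not called without CFUE replicate 2, and was not called without MEP replicate 2 either. Fli1 was called under every alternative run. ERY had fewer Fli1 peaks again (4.64 and 2.05 per 100000), without overlap with CFUE, a pair that was not tested.

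The lists differed in length, so the same windows were counted among the 52720 highest scores of each list, the length of the shortest list. Erg had 17 and 11 such peaks in LSK, 12 and 10 in CMP, 21 and 14 in GMP, 17 and 24 in MEP, 15 and 17 in CFUMK and 16 and 17 in iMK, and 0 in all 4 CFUE and ERY libraries and both MON libraries. NEU had 12 and 8, G1E 29 and 25 and G1E-ER4+E2 4 and 6. At Erg the erythroid and monocyte peaks all stood in the lower ranks of their lists. Fli1 had 18 and 15 in LSK, 20 and 20 in CMP, 20 and 21 in GMP, 9 and 10 in MEP, 0 in all 4 erythroid libraries, 16 and 16 in CFUMK, 14 and 17 in iMK, 17 and 19 in MON and 19 and 21 in NEU. Etv6 had 36 and 22 in LSK, 33 and 39 in CMP, 47 and 48 in GMP, 22 and 26 in MEP and again 0 in the erythroid libraries, against 33 and 28 in CFUMK and 38 and 38 in iMK. Erg, Fli1 and Etv6 thus had no erythroid peak at that rank while MEP had 9 or more at each. Elk3 had 1 and 0 in CFUE, 1 and 0 in ERY and only 4 and 3 in MEP. Ets1 had 2 and 1 in CFUE, 1 and 1 in ERY and likewise 1 and 1 in MEP. Elf1 had 26 and 28 in CFUE and 33 and 28 in ERY, all of its peaks there, against 17 and 17 in LSK and 15 and 17 in CMP.

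**Figure D3:**
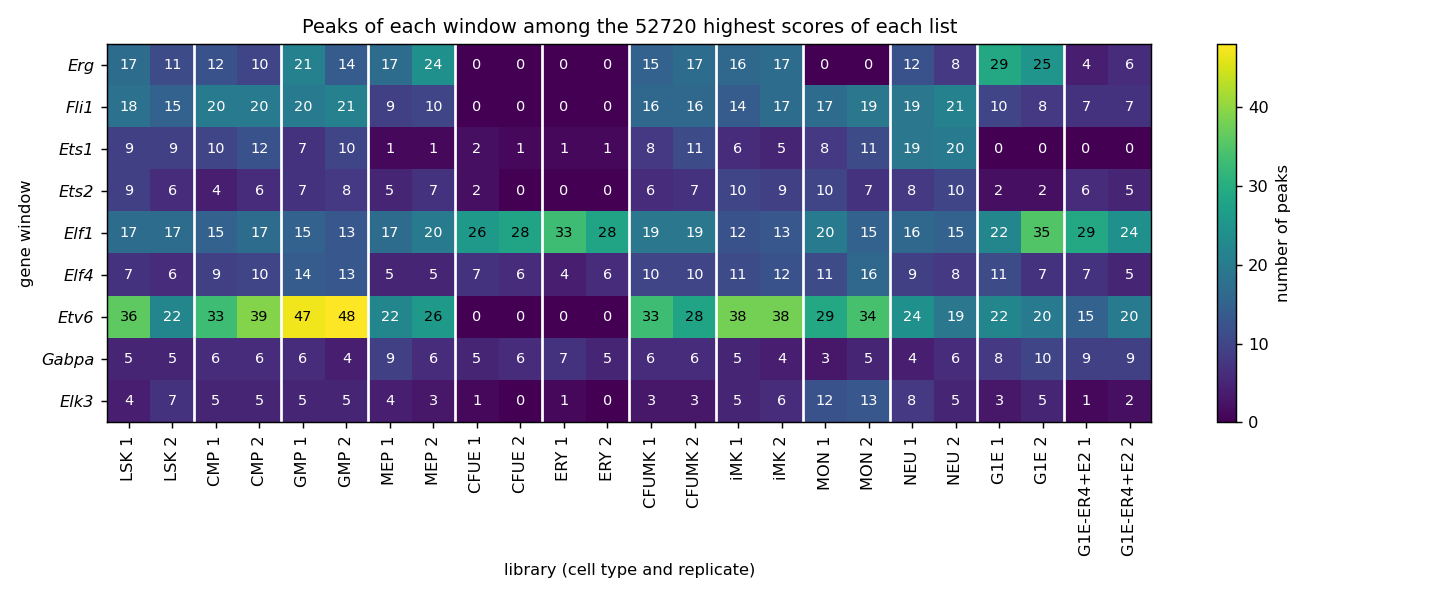
Number of peaks in each gene's window among the 52720 highest scores of each list, genes in rows and libraries in columns, with the number in each cell. The CFUE and ERY columns hold 0 at Erg, Fli1 and Etv6 and 26 to 33 at Elf1.

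The elements gave the same comparison by position. Of the 327, LSK had 88, CMP 147, GMP 176, MEP 110, CFUE 42, ERY 42, CFUMK 184, iMK 174, MON 96, NEU 89, G1E 54 and G1E-ER4+E2 49. CFUE and ERY thus each had 12.8% of them, where they had 19.7% and 20% of all elements of the genome. LSK (26.9% against 33.3%) and CMP (44.95% against 52.0%) were also below their genome shares, as were GMP, MEP, CFUMK and G1E-ER4+E2 by less. The shares of iMK (53.2% against 47.1%), MON (29.4% against 25.2%), NEU (27.2% against 20.9%) and G1E (16.5% against 13.4%) were above. The counts rest on the rule of both libraries. With 1 library left out, the other stood alone for its type, and counts reached 116 in CFUE, 89 in ERY and 182 in LSK. Erg had 28, 29, 22, 34 and 33 elements in CMP, GMP, MEP, CFUMK and iMK but 3 in CFUE and 5 in ERY, and Fli1 had 20, 19, 17, 22 and 18 against 2 and 1. Elf1 had 15 and 15 in CFUE and ERY, beside 11 in LSK, 17 in CMP and 18 in GMP, and Gabpa 5 and 5 beside 6, 7 and 7. Elk3 had 26 and 23 in CFUMK and iMK, 21 in GMP, 3 and 2 in CFUE and ERY, 3 in G1E and 0 in G1E-ER4+E2.

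Of the 213 elements called in LSK, CMP or GMP, the erythroid types kept 38 (17.8%, exact 95% binomial interval 12.95% to 23.7%, for counting error only), the megakaryocytic types 177 (83.1%, 77.4% to 87.9%) and the innate types 93 (43.7%, 36.9% to 50.6%). Over the genome the shares were 22.9%, 78.8% and 36.2% of 146419. The erythroid share was uneven among the genes. Erg kept 3 of 37 (8.11%, 1.70% to 21.9%), Fli1 2 of 25, Ets1 1 of 22, Etv6 4 of 50 and Elk3 1 of 26, while Elf1 kept 14 of 23 (60.9%, 38.5% to 80.3%), Elf4 7 of 17, Gabpa 5 of 8 and Ets2 1 of 5. The megakaryocytic types kept 32 of the 37 of Erg, 22 of the 25 of Fli1 and 40 of the 50 of Etv6. Among elements more than 1 kb from any start the erythroid share was 12.6% of 174, against 14.8% over the genome, and among those nearer to a start it was 41.0% of 39, against 47.8%. Elements of a window are neighbors, not replicates, and none of these shares was tested.

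Elements called in a multilineage and a megakaryocytic type but in neither CFUE nor ERY were 142 of 327 (43.4%), against 39.8% of all elements. By gene they were 22 of 37 at Elk3 (59.5%), 20 of 37 at Fli1 (54.1%), 29 of 60 at Erg (48.3%), 36 of 83 at Etv6 (43.4%) and 7 of 35 at Elf1 (20%). Elements of all 12 types were 9 (2.75%, against 5.10% over the genome), with 5 at Elf1, 2 at Gabpa, 1 at Ets2 and 1 at Elf4. Ets1 had 8 of 39 elements called in MON or NEU and in no multilineage, megakaryocytic or erythroid type (20.5%, against 3.65%). Calls in MEP or the cell lines were not excluded from that class.

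Single elements are described here beside their sequences. They were chosen for the highest mean score percentile over the types that call them, a mean that leaves out types without a call. High ranks in the calling types thus follow from the choice. The Fli1 element at +2.09 kb had score percentiles of 95.9 and 88.5 in LSK, 96.7 and 97.5 in CMP, 99.5 and 99.3 in GMP, 97.3 and 96.7 in CFUMK, 95.7 and 97.5 in iMK, 87.0 and 71.5 in NEU, and 98.4 and 97.2 in MON. It had no peak in MEP, ERY or the cell lines, and 1.87 in CFUE replicate 2 alone. Its high ranks in the multilineage, megakaryocytic and monocyte lists are what it was chosen by. The Fli1 elements at +40.5 and +41.35 kb, the Ets1 element at -27.8 kb, the Etv6 element at +29.5 kb and the Elk3 element at +49.8 kb were also called in megakaryocytic and innate types. At Ets1 -27.8 kb the values were 92.9 and 89.9 in GMP, 88.4 and 85.1 in CFUMK, 87.6 and 88.1 in iMK and 94.8 and 88.1 in NEU, with no peak in MEP, CFUE, ERY or the lines. At Etv6 +29.5 kb they were 97.2 and 98.5 in LSK, 97.6 and 97.6 in iMK and 94.3 and 96.4 in MON, with 53.9 in MEP replicate 2 only and none in CFUE, ERY or the lines.

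**Figure D4:**
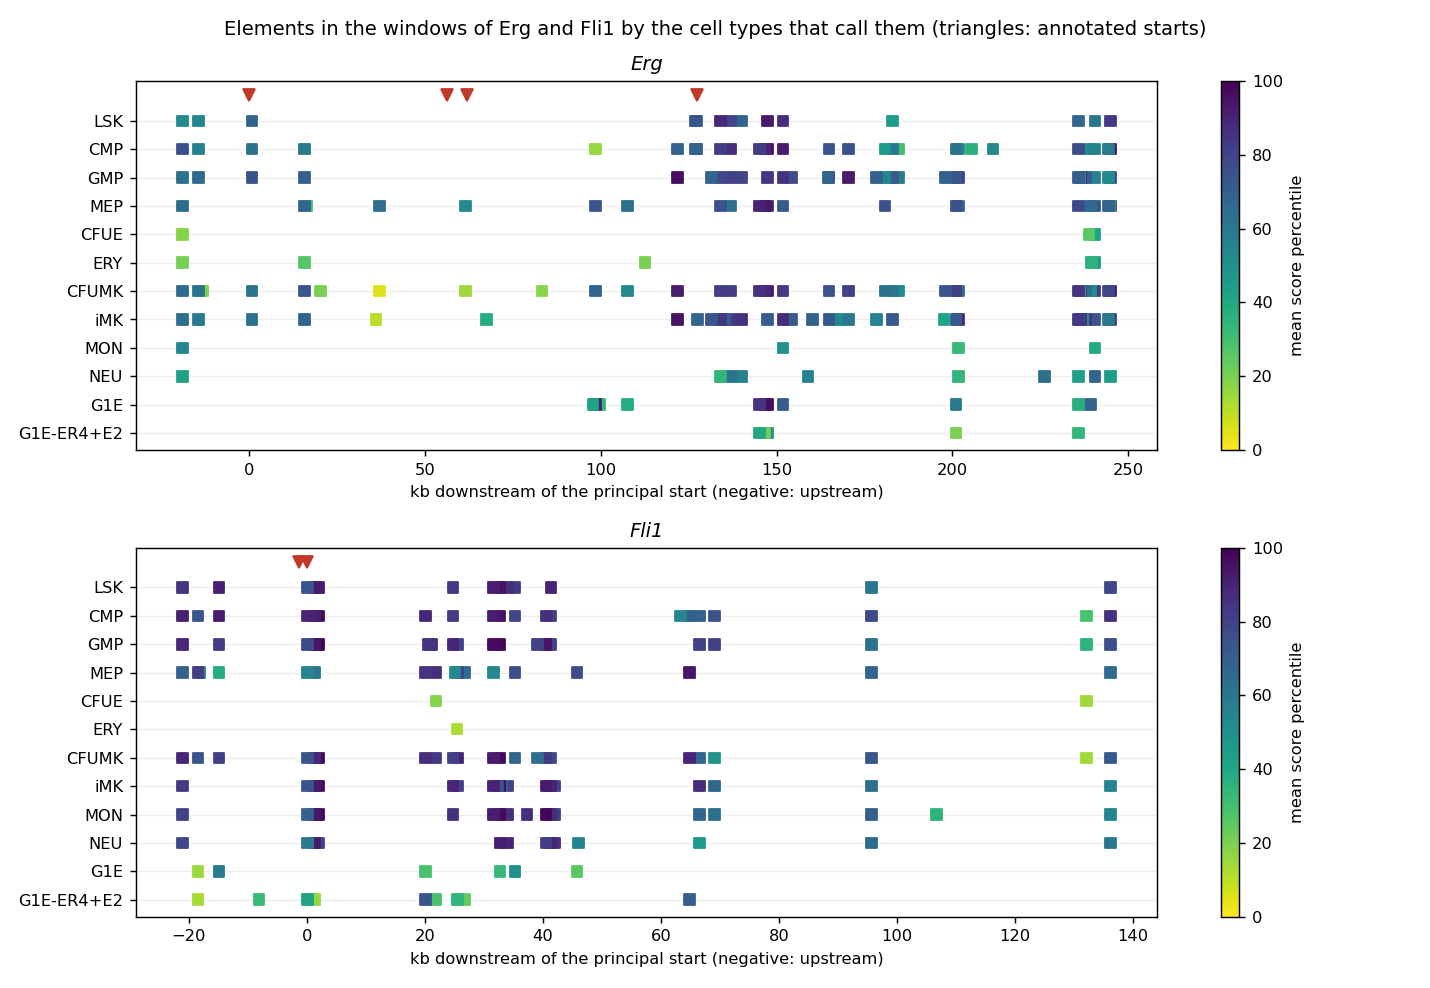
Elements in the windows of Erg and Fli1 by cell type, placed by distance downstream of the principal transcript start in kb and colored by mean score percentile, with triangles at annotated starts. The CFUE and ERY rows hold 3 and 5 elements at Erg and 2 and 1 at Fli1, against 34 and 22 in the CFUMK row.

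At Erg the elements, chosen in the same way but for that at +98.5 kb, differed among the progenitors. Those at +236.6 and +121.8 kb had 92.1 and 89.9, and 97.3 and 95.4, in GMP, 87.9 and 84.4, and 93.2 and 91.6, in CFUMK, and no peak in MEP, ERY or the cell lines. LSK replicate 1 had 93.1 and 95.3 at them, and LSK replicate 2 no peak. In CMP the first had 49.8 in replicate 1 only, and the second 68.7 and 70.3. The first also had 36.6 in CFUE replicate 2. The element at +147.4 kb had peaks in both libraries of 8 types, with 95.3 and 95.1 in CMP, 89.9 and 91.9 in MEP, 92.9 and 93.8 in CFUMK, 95.8 and 97.5 in G1E and 63.9 and 33.3 in G1E-ER4+E2. In CFUE it had 30.8 in replicate 1 only, and none in ERY. The element at +98.5 kb had 75.0 and 73.4 in MEP, 62.8 and 73.9 in CFUMK, 92.2 and 90.5 in G1E and none in GMP, CFUE, ERY or G1E-ER4+E2. In CMP it had 20 and 11.8.

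The cell lines compared GATA1-deficient cells with the clone in which GATA1 works. Erg had 29 and 28 peaks in G1E (55 and 48.3 per 100000) and 10 and 14 in G1E-ER4+E2 (16 and 19.9 per 100000). Elk3 had 3 and 6 peaks in G1E and 2 and 2 in G1E-ER4+E2. Erg fell by 1.49 ± 0.22 log2 (limma, adjusted p = 1.63e-05) and Elk3 fell by 1.18 ± 0.27 log2 (limma, adjusted p = 0.00261). Ets2 had 2 and 3 peaks in G1E and 9 and 8 in G1E-ER4+E2, a rise of 1.40 ± 0.36 log2 (limma, adjusted p = 0.00608). In each of these the libraries of the lines did not overlap. Thus 2 of 8 genes with peaks were called lower and 1 higher, against 4.94% and 11.5% of all genes. Fli1, with 10 and 9 peaks in G1E against 11 and 16, differed by +0.22 log2 and was not called. Etv6, with 22 and 22 against 25 and 31, differed by +0.08 and was not called either, and Ets1 had no peaks to compare. The Elk3 call was lost without G1E replicate 2 (-0.78). That of Ets2 was lost without G1E replicate 1 (1.20) and also without G1E-ER4+E2 replicate 1.

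By element, 6 of the 60 at Erg were called in G1E and not in G1E-ER4+E2 and 0 the other way (10% and 0%, against 3.54% and 6.49% of all elements). At Fli1 these were 4 and 7, at Elf1 6 and 3, at Elk3 3 and 0, at Etv6 2 and 6 and at Ets2 0 and 2. Of the 6 at Erg, 5 held a GATA motif in their central 200 bp, as did 3 of the 3 at Fli1 more than 1 kb from a start and 13 of the 22 over the 9 genes (59.1%). Over the genome 56.9% of such elements did, so the share at these genes was near the background. The pair printed above, at +98.5 and +107.7 kb of Erg, held 2 matches each.

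Promoters were scored apart from the rest, by a peak within 500 bp of an annotated start. LSK, CMP, CFUMK and iMK had a called promoter at all 9 genes in every library. CFUE had 7 and 6, ERY 7 and 6, G1E 5 and 5 and G1E-ER4+E2 6 and 6, and the other libraries 8 or 9. The promoters without a peak in CFUE or ERY were those of Erg, Fli1 and Elk3. Over all 21911 genes 42.5% to 68.9% of promoters were called in a library, with 54.2% and 50.8% in CFUE and 50.2% and 49.3% in ERY.

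The annotated principal start of Erg had no peak in any of the 24 libraries. Instead the group of 3 starts at +127.3 kb was called in 8 libraries, with score percentiles of 74.7 and 73.4 in LSK, 76.9 and 72.3 in CMP, 70.5 in GMP replicate 1, 65.3 and 69.2 in iMK and 39.0 in MON replicate 1. The start at +62.0 kb was called in 6 libraries of CMP, MEP, ERY and CFUMK, with at most 57.9. The Fli1 principal start was called in 18 libraries, with 90.7 and 89.0 in CMP, 50.5 and 59.7 in MEP, 75.0 and 72.0 in CFUMK, none in CFUE, ERY or G1E, and 17.7 and 66.2 in G1E-ER4+E2. Ets1 was called in all primary libraries, at 84.1 and 75.4 in CFUE and 71.2 and 69.8 in ERY and at 87.0 to 97.4 in the others, so its promoter remained open where most of its distal elements had no call. Ets2 and Etv6 also had a call there but at lower ranks: Ets2 had 61.6 and 43.3 in CFUE and 49.6 and 45.3 in ERY against 86.2 to 98.4 in the other primary libraries, and Etv6 had 55.8 and 33.3 in CFUE and 38.1 and 19.5 in ERY against 91.0 to 95.1 in LSK, CMP and GMP. Gabpa was called in all 24 libraries at 94.6 to 99.9.

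**Figure D5:**
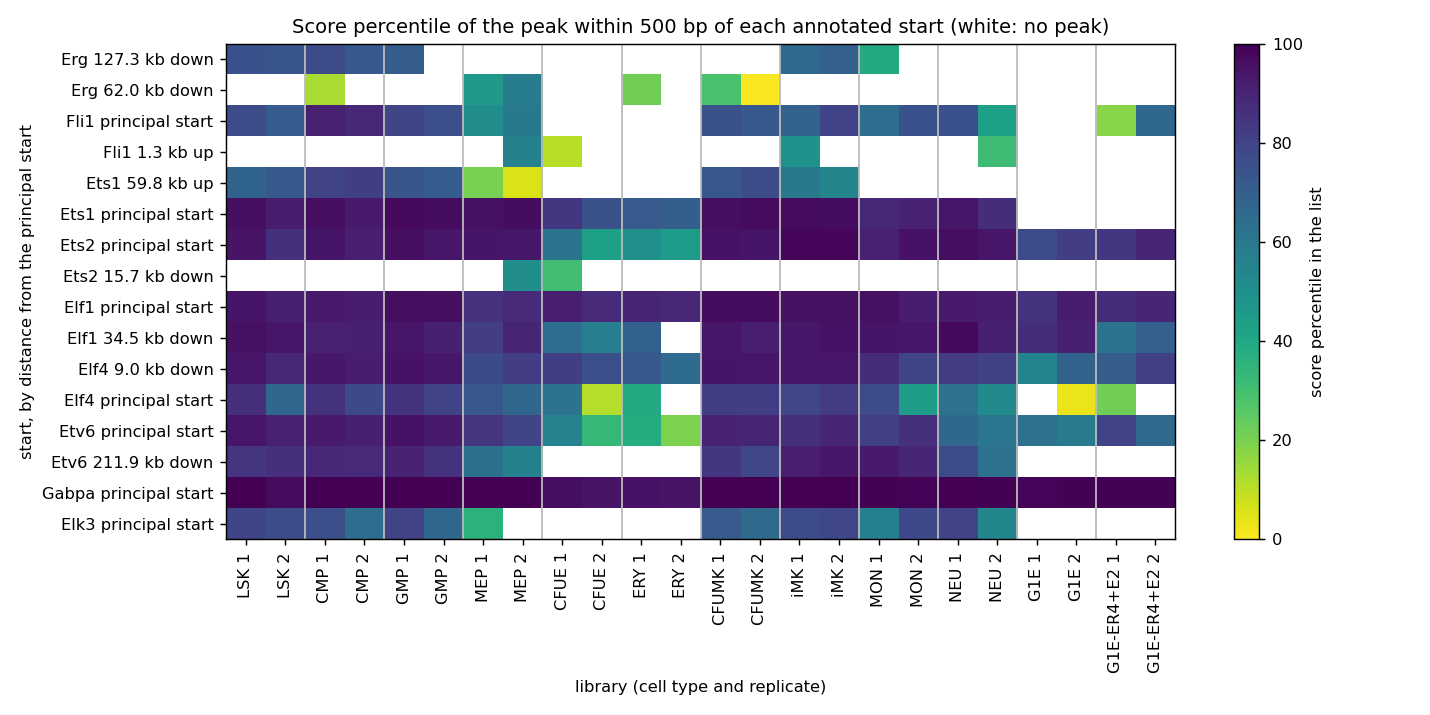
Score percentile of the best peak within 500 bp of the annotated starts or groups of starts of the 9 genes (rows) in each library (columns), white where no peak was called. Starts without a peak in any library, the principal start of Erg among them, have no row. The principal start of Fli1 is white in CFUE, ERY and G1E, and that of Gabpa lies at 94.6 to 99.9.

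The motifs searched were counted over the elements of the 9 genes together and then by class. In the central 200 bp an ETS motif stood in 60 of 327 elements (18.4%, against 16.7% of all elements), a GATA motif in 73 (22.3%, against 21.9%), a RUNX motif in 27 (8.26%, against 9.51%) and an E-box in 96 (29.4%, against 28.2%). By gene, Elk3 held 15 of the 60 elements with an ETS motif, in 15 of its 37 elements (40.5%). Of the distal elements called in MEP and in neither CFUE nor ERY, 31 of 65 held a GATA motif (47.7%), against 41.7% of such elements in the genome. Of those called in multilineage and megakaryocytic but not erythroid types, 29 of 123 held an ETS motif (23.6%, against 20.4%) and 18.7% a GATA motif (against 19.1%). Elk3 gave 9 of those 29, in 19 elements of that class (47.4%), and none of these shares was tested. Among the printed stretches an ETS motif stood only in the Erg promoter and the Elk3 element at +49.8 kb, and the latter also held a GATA and a RUNX motif.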

How the data were processed

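The deposited files were 24 peak lists, 1 per library, each with peak coordinates and a score. From the submitters' notes and the methods of the study, the authors aligned ATAC-seq reads to mm10 with Bowtie 0.12.8, used SAMtools and bedtools, and called peaks with HOMER in each library separately. For SAMtools the notes give 1.6 and the methods an earlier release. The score was deposited by the authors without a stated unit, so it served only to rank peaks within a list and to read relative depth from its lowest steps, of which 91.1% or more of the values were whole multiples. The lists give no read counts, and a site missed for lack of depth cannot be told from a closed one. Groups followed the labels. The 9 genes, the gene lists and the tests were chosen with earlier results of these data known.

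Peaks were counted in each gene body and 20 kb on each side. The numbers per 100000 called peaks (log2, prior of 1 peak) of 17023 genes with a mean of 3 or more peaks per library were fitted in limma 3.58.1 (R 4.3.3, trend and robust variance) over 12 groups, with 7 contrasts and a threshold of 0.05 after Benjamini-Hochberg adjustment. Where an alternative leaves 1 library of a type, its spread is taken from the other groups. Tested on simulated data, the contrast of megakaryocytic with erythroid types found 22.4% of 2-fold and 90% of 4-fold rises, with 4 false calls among 16660 genes, and that of CFUE with MEP found 2.04% and 36%. Of genes lowered to 0.5 and 0.25 of their level these contrasts found 8.16% and 56.5%, and 6.12% and 18.4%. The simulated counts were Poisson draws around a mean per gene shared by all types, with a small part of the genes changed. Spread between replicates beyond counting error was not simulated, and the main fit called 8923 of 17023 genes between megakaryocytic and erythroid types. The simulated rates therefore need not hold for the deposited lists. Named besides the 9 genes are the called members of 2 further lists (at most 3 per contrast, by size) and up to 3 genes of most similar pattern per gene. Beyond those named, 1 further marker gene and 1 further gene of similar pattern are not reported here. Elements were selected per gene as the promoter element called in most types and the distal ones of highest mean score percentile (3 for Erg and Fli1, called in 2 or more types). Of these, the ones of Erg and Fli1 and the distal ones of Ets1, Etv6 and Elk3 are printed, with the pair at Erg. The selected elements of Ets2, Elf1, Elf4 and Gabpa are not printed. Sequences are RefSeq's, GRCm38.p6. Counting used pandas 2.3.3, numpy 2.4.6 and scipy 1.17.1, and plots matplotlib 3.10.9. Alternatives changed the flank, the filter, the prior, the list length, the replicate rule and the libraries used.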

Additional observations from a re-analysis of the deposited data

How the results depend on the processing

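Of 25 calls of single genes over the 7 contrasts, 12 were kept under every alternative run: Fli1, Ets1, Elf1 and Elk3 in the erythroid contrast with multilineage types, Erg, Fli1, Ets1, Elf1, Etv6 and Elk3 between megakaryocytic and erythroid types, Fli1 from MEP to CFUE, and Erg between the cell lines. With equal peak numbers from each list the direction turned for Ets2 (-2.51) and Elf4 (-0.65) in the erythroid contrast, Etv6 (-0.47) in the innate one, Elf4 (0.82) between megakaryocytic and erythroid types, Fli1 (-1.002), Elf4 (-0.81) and Etv6 (-0.57) from CMP to MEP, and Ets1 (0.29) from MEP to CFUE. The gene body alone turned Ets2 (-0.85) in the erythroid contrast, and 50 kb flanks turned Gabpa (0.21) between megakaryocytic and erythroid types and, outside the 9 genes, Elf3 (-0.46) between the cell lines. Peaks kept only when found in both replicates turned Ets2 (-1.09, or -0.97 with overlap over 0.5 of their length) in the erythroid contrast and Elf4 (0.34 and 0.53) and, under the stricter overlap, Gabpa (0.32) from MEP to CFUE. The cause of these turns was not tested.

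Under the rule of both replicates, and its stricter form, genes called of 9 were 5 and 6 between megakaryocytic and multilineage types, 8 and 8 in the innate contrast, 5 and 7 from CMP to MEP, 8 and 9 from MEP to CFUE and 7 and 8 between the cell lines. That rule makes replicates alike by construction and so shrinks their spread. The share of all genes called is not given for each setting, so these counts of 9 are not read as particular to the 9 genes. Equal peak numbers gave 5 from CMP to MEP, and the gene body alone 2 from MEP to CFUE. Calls against LSK replicate 2 as the only multilineage library are not counted here. Leaving out 1 library gave 5 to 7 in the erythroid, 0 to 0 in the megakaryocytic and 0 to 4 in the innate contrast with multilineage types, 6 to 9 between megakaryocytic and erythroid types, 0 to 0 from CMP to MEP, 1 to 5 from MEP to CFUE and 2 to 3 between the lines. Over all alternatives the numbers of all genes called ran, in the same order, from 5430 to 14227, 0 to 8265, 44 to 13274, 4807 to 14125, 63 to 10438, 421 to 12636 and 1614 to 9860. The main fit called 9626, 37, 4547, 8923, 287, 1242 and 2801 of 17023. Alternatives with other counts or filters tested other numbers of genes, up to 21911 without the filter, so these ranges are not shares of 17023.

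Elements called from either replicate numbered 194 in LSK, 191 in MEP, 143 in CFUE, 123 in ERY, 184 in MON, 169 in NEU and 77 in G1E-ER4+E2, and with equal peak numbers 57 in LSK, 74 in CMP, 102 in GMP, 54 in MEP, 26 in CFUE, 25 in ERY, 86 in CFUMK and 86 in iMK. Without 1 library they ran from 88 to 182 in LSK, 146 to 181 in CMP, 175 to 222 in GMP, 110 to 167 in MEP, 42 to 116 in CFUE, 42 to 89 in ERY, 183 to 216 in CFUMK, 173 to 213 in iMK, 96 to 155 in MON, 89 to 134 in NEU, 54 to 70 in G1E and 49 to 66 in G1E-ER4+E2. The megakaryocytic types kept 74.1% of multilineage elements with either replicate and 74.6% with equal peak numbers, and the innate types 50.8% with equal peak numbers. Without 1 library the kept shares ran from 15.9% to 21.6% (erythroid), 75.8% to 87.3% (megakaryocytic) and 40.1% to 51.2% (innate). Promoters called of 9, as means of 2 libraries, were with equal peak numbers 7.5 in CMP, 7.5 in GMP, 6 in MEP, 4.5 in CFUE, 4 in ERY, 6.5 in CFUMK, 7.5 in iMK and 7 in MON, and with starts within 1 kb 7.5 in CFUE and 8.5 in NEU. The labels give the libraries no replicate numbers. Library numbers 842 to 848 and 850 to 856 each hold 1 library of each type among them, though the labels name neither as a batch. Taking these 2 series as a block gave 7 and 8 calls of 9 in the erythroid contrasts with multilineage (CMP and GMP) and megakaryocytic types. The same numbers were found without the block, and shares of all genes are not given for either. The lists give no read depth, so how far it limits the counts of peaks was not tested.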

Other observations

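Other ETS genes moved too, in a list chosen with earlier results of these data known. Of 17, 16 had enough peaks to be tested, all but Spic. In the erythroid contrast with multilineage types 4 were called lower and 2 higher, where 17.6% and 38.9% of all genes were so called, and Etv1 changed most. Etv1 differed by -3.35 ± 0.36 log2 (limma, adjusted p = 5.31e-07), and its relative Etv5 by -1.30 (adjusted p = 1.43e-06). Between megakaryocytic and erythroid types Etv1 was higher by 3.69 ± 0.40 (limma, adjusted p = 7.97e-07) and Etv5 by 1.07 (adjusted p = 8.72e-05), in a contrast that called 16% of all genes higher. No peak at Etv1 was found in either ERY library, so the size of its differences depends on the prior of 1 peak. From MEP to CFUE the only one called was Etv1, at -2.32 (limma, adjusted p = 0.0165), where 5.24% of all genes were lower. In the innate contrast 4 were higher and 1 lower, where 13.9% and 12.8% of all genes were, among them Etv3 (+0.79, adjusted p = 0.0135) and Elk1 (+0.67, adjusted p = 0.0128), with Fev lower (-1.33, adjusted p = 0.00843) by limma. Between the cell lines 2 were higher, where 11.5% of all genes were, namely Spdef (adjusted p = 0.00296) and Elf3 (+1.06, adjusted p = 0.0334), by limma. Spdef had no peak in either G1E library, so no fold is given, and the direction of Elf3 turned with 50 kb flanks (-0.46). Between megakaryocytic and multilineage types and from CMP to MEP limma called 0 of 16, with 0 and 1 at an unadjusted p below 0.05.

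Of the 5 partner genes Tal1, Lyl1, Lmo2, Gata2 and Runx1, 2 were called higher and 0 lower in the erythroid contrast with multilineage types, Lyl1 (+0.69, adjusted p = 0.00117) and Tal1 (+0.49, adjusted p = 0.0175), by limma. All genes had a median of +0.30 there, and 38.9% of them were called higher, so these counts show nothing particular to the partners. Gata2 was higher in megakaryocytic than in erythroid types (+0.86, adjusted p = 0.00942) and lower in innate than in multilineage types (-1.04, adjusted p = 0.00309), and Tal1 was lower in megakaryocytic than in erythroid types (-0.69, adjusted p = 0.00336), by limma. The shares of all genes called in those directions were 16% (megakaryocytic above erythroid), 36.4% (below) and 12.8% (innate below multilineage). Lmo2 was higher in CFUE than in MEP (+0.88, adjusted p = 0.0267), and Lyl1 was lower in G1E-ER4+E2 than in G1E (-1.001, adjusted p = 0.00693), by limma, where 2.06% and 4.94% of all genes were. Limma called 0 of 5 between megakaryocytic and multilineage types and from CMP to MEP, with 0 and 0 at an unadjusted p below 0.05.

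Genes whose peak number over the 12 type means ran most like that of a member were found by Pearson's correlation, given here as a description, since the 12 points share libraries and list lengths. They were Riok1 (0.902), Unc45b (0.844) and Bbs9 (0.841) for Erg, and Cldn12 (0.959), Tiparp (0.95) and Cpeb2 (0.949) for Fli1. For Ets1 they were Nfil3 (0.996), Stambpl1 (0.993) and Mpeg1 (0.992), but 1027 genes exceeded 0.9 there, as 1573 did for Elf1 and 547 for Gabpa. For Etv6 they were Ceacam19 (0.961), Eml4 (0.945) and Lyn (0.938), and for Elk3 Tnfrsf13b (0.949), Chrm3 (0.944) and Mcoln3 (0.943). For Ets2 (Gast, 0.898) no gene exceeded 0.9, and for Elf4 2 did. For Elf1 the first was Nemf (0.99) and for Gabpa Gm10959 (0.975). Among the 9 genes themselves the correlation over the types was 0.88 between Fli1 and Etv6, 0.82 between Ets1 and Elk3, 0.83 between Elf1 and Gabpa and -0.94 between Ets1 and Gabpa. Ets1 had no peak in the cell lines, where the prior alone sets its value (-0.516 log2, against 2.55 to 4.81 in the primary types). Gabpa was highest in the same lines (4.08 in G1E and 3.84 in G1E-ER4+E2). How far the lines carry these correlations, and the 1027 genes above, was not tested.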
